A study of Mus musculus with 2 samples.

Results

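The expression of 6 EGF family ligand genes and 4 ErbB receptor genes was followed across the cell classes of the mouse aorta, in mice with endothelial overexpression of Cept1 and in controls without Cre. The ligands were Nrg1, Ereg, Areg, Hbegf, Tgfa and Btc, and the receptors were Egfr, Erbb2, Erbb3 and Erbb4. The 10 genes were listed by symbol, and each symbol matched 1 of the 32285 features counted. The list was drawn up knowing that Nrg1 and Ereg were higher in arterial endothelium of the Cept1 library, so those 2 differences chose the members and are given as a description that supports nothing further.

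Single cells of the aorta, taken from the arch down to the bifurcation, were captured with 10x Genomics 3′ v3 chemistry, in which each captured transcript carries a unique molecular identifier (UMI). Each group held 1 library, called here the Cept1 library and the control library. All were male mice on a C57BL6 background, homozygous for the floxed Cept1 allele (Cept1fl/fl). The Cept1 group also carried VE-cadherin-Cre-ERT2, a Cre recombinase that tamoxifen activates and that the promoter of an endothelial adhesion gene drives, and the control group was Cre−. Male littermates of at least 8 weeks received 5 daily injections of 1 mg tamoxifen and 5 days of recovery, while the age label reads 6 to 8 weeks. The labels give n = 3 per condition. The sources used here do not say whether the 3 aortas were pooled or how the cells were sorted. The same tamoxifen course is recorded for both groups, while the genotype label names tamoxifen only for the Cept1 group. Effects of Cre and of Cept1 cannot be told apart in this design. Because each group is 1 library, no difference between the libraries has a replicate check and none was tested.

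EGF family ligands are made as precursors anchored in the cell membrane, and sheddases of the ADAM family release them to act on the same or neighbouring cells. Egfr binds Areg, Tgfa, Hbegf, Btc and Ereg, Erbb3 binds the neuregulins, and Erbb4 binds neuregulins as well as Hbegf, Btc and Ereg, while Erbb2 has no known ligand of its own and serves as the partner in receptor dimers. In vessels and heart, endothelial neuregulin-1 is a classic paracrine signal to ErbB receptors of neighbouring muscle cells, and in peripheral nerve the same ligand sustains Schwann cells through Erbb3 and Erbb2.

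Ereg, Areg and Btc lie in 1 cluster on mouse chromosome 5, with Ereg at chr5:91074622-91093646, Areg at chr5:91139599-91148432 and Btc at chr5:91357261-91402994 (GENCODE vM21, GRCm38). Nrg1 spans chr8:31814551-32884029, which is 1069 kb, and Erbb4 spans chr1:68032186-69108059, which is 1076 kb. Tgfa lies at chr6:86195223-86275719, Egfr at chr11:16752203-16918158, Erbb2 at chr11:98412470-98437716 and Erbb3 at chr10:128567523-128589652. The sources used here do not say whether intronic reads were counted.

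RefSeq promoter sequences (GRCm38.p6) were held for 6 of the 10 members. The 250 bases before the start site are shown for a ligand of myeloid cells (Areg), a ligand of endothelium (Tgfa), the receptor of fibroblasts and macrophages (Egfr) and the receptor of smooth muscle (Erbb4), since these 4 genes had their highest levels in different cell classes. Capitals mark matches, on either strand, to 5 motifs. These were the TATA box (TATAAA), the core of the Sp1 site (GGGCGG), the cAMP response element (TGACGTCA), the AP-1 site (TGANTCA) and the CArG box of serum response factor.
Areg, chr5:91139349-91139598, plus strand: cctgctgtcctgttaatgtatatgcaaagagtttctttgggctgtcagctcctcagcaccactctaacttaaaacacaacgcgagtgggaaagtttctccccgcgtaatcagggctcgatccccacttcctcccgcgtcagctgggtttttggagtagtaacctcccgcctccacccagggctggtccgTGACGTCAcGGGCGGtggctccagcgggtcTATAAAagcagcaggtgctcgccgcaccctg
Tgfa, chr6:86194972-86195221, plus strand: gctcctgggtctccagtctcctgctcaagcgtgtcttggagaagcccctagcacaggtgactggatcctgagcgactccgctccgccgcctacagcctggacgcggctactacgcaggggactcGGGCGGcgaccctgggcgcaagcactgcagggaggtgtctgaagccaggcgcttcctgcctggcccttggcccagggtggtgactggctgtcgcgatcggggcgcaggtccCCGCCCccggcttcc
Egfr, chr11:16751953-16752202, plus strand: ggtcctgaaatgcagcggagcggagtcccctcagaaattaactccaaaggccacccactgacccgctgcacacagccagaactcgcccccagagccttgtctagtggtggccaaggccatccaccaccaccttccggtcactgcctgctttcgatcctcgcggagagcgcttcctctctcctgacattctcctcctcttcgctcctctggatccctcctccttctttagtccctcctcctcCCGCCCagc
Erbb4, chr1:69108060-69108309, minus strand: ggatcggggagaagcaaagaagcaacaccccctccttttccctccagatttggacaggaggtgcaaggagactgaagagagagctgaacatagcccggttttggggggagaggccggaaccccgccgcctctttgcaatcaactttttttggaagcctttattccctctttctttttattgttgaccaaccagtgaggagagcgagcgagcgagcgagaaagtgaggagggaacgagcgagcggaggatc

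Areg held 3 of the motifs, with the cAMP response element starting at base 190 of the 250, the Sp1 core at base 199 and the TATA box at base 220. No matches overlapped. Among 32851 promoter windows of 250 bases, 1.55% held the cAMP response element and 12.4% the TATA box. The Sp1 core was present in 32.7% of all windows and in those of Areg, Tgfa and Egfr among the members held. The AP-1 site (6.75% of windows) and the CArG box (1.47%) had no match in the 6 members held, and Erbb4, Btc and Erbb2 had no match to any motif. These matches describe letters in a window and were not tied to any measured binding.

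Total depth was 95735360 UMIs from 17728 barcodes (Cept1) and 88220524 UMIs from 14349 barcodes (control). Of these barcodes, 11168 and 8729 were kept as cells, with medians of 6439 and 6735 UMIs, and marker UMIs assigned 10131 and 7523 of them to a cell class. The libraries shared 74 barcode sequences, 31 of them among kept cells. Levels are UMIs per 1000000 UMIs of the same class and library (CPM). Log2 ratios set the Cept1 library over the control, and their 95% intervals cover counting error only and treat UMIs as independent, which makes them too narrow wherever few cells hold most UMIs of a gene. CPM values are not scaled for gene length and are compared here only within a gene. Cept1 itself was at 117 CPM in arterial-like cells of the Cept1 library and 73.5 CPM in the control library (log2 ratio 0.67, interval 0.47 to 0.88). The log2 ratio of Cept1 was 0.92 (0.64 to 1.20) in capillary-like cells. In 2 other endothelial classes its interval held 0, with 0.19 (-0.17 to 0.55) in lymphatic-like cells and 0.21 (-0.27 to 0.70) in endothelial-like cells of no subtype. Outside endothelium the interval lay above 0 in smooth muscle-like cells, at 0.34 (0.13 to 0.55), and in T or NK-like cells, at 0.32 (0.01 to 0.62).

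**Figure D1:**
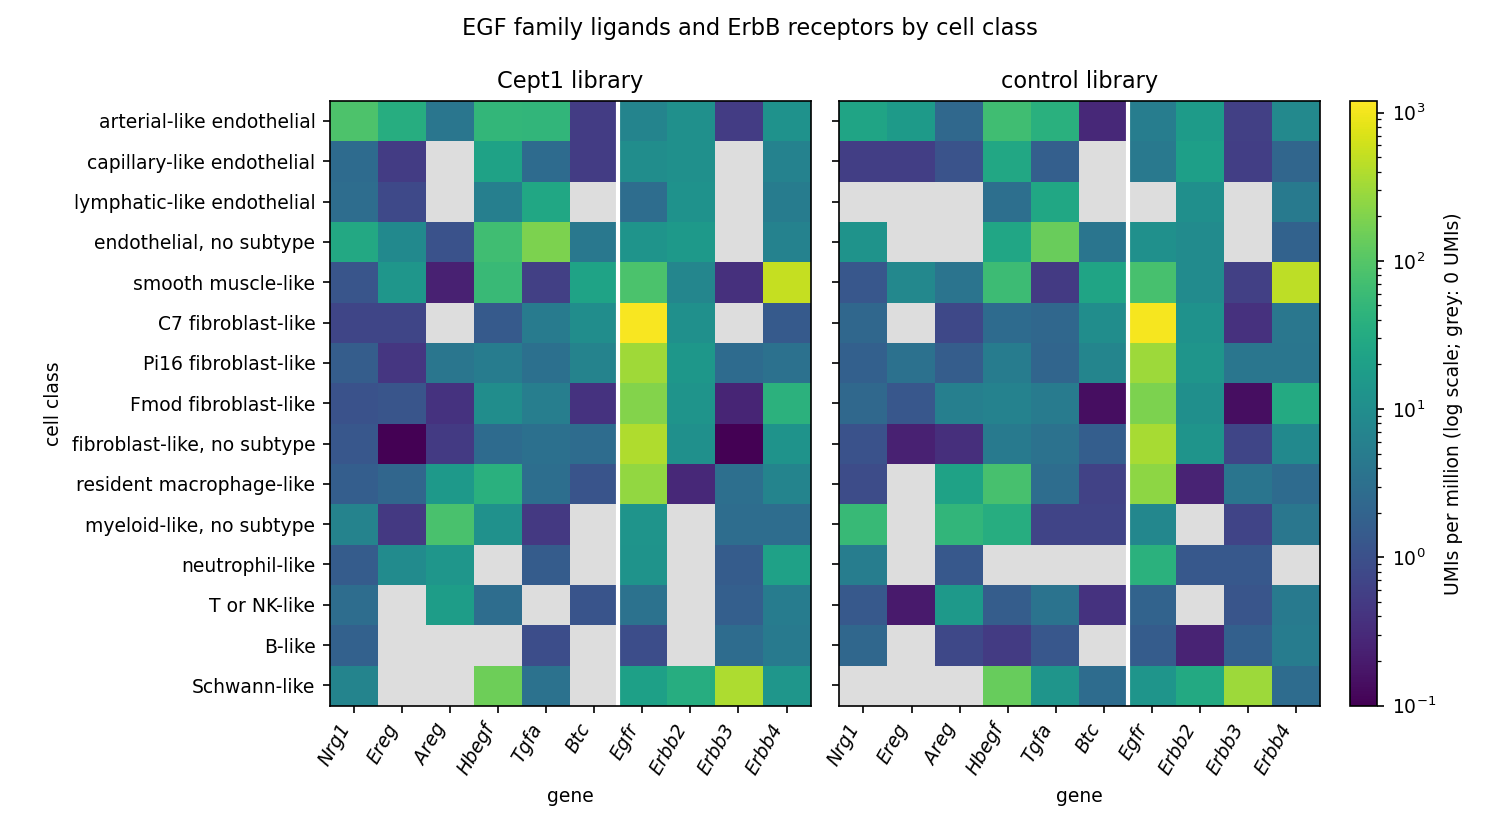
Level of each member (columns) in the 15 cell classes with at least 50 cells per library (rows), in CPM on a log colour scale. Grey marks classes with 0 UMIs, and the white line separates ligands from receptors. Nrg1 is brightest in arterial-like cells of the Cept1 library, Egfr in fibroblast-like and resident macrophage-like cells, Erbb3 in Schwann-like cells and Erbb4 in smooth muscle-like cells.

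Arterial-like endothelial cells were defined by UMIs of Gkn3, Cytl1, Bmx and Gja5 and numbered 845 in the Cept1 library against 307 in the control library, with median depths of 7534 and 8536 UMIs. A further 5 arterial genes that the gate did not use were all detected. Gja4, a connexin of arterial endothelium, was at 301 and 319 CPM there, against 25.4 and 62.5 CPM in capillary-like cells. Sox17 and Sema3g were not higher in arterial-like than in capillary-like cells, with 197 and 243 CPM of Sox17 against 261 and 387 CPM. Markers of other cells in the arterial-like class summed to 181 and 107 CPM for smooth muscle (5 of 5 detected in both libraries, lowest 5.03 and 2.06 CPM). For fibroblasts they summed to 166 and 273 CPM (5 of 5). Haemoglobin genes summed to 4185 and 2847 CPM. Schwann markers summed to 7.41 and 5.00 CPM, with 4 and 3 of 5 detected. Among these 5, Sox10, which defines Schwann cells, had 0 UMIs in both libraries. The part of these other cells' RNA in the results was not tested.

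In arterial-like cells, 8 of the 10 members reached the 20 UMIs over both libraries needed for a ratio. Of these, 6 were higher in the Cept1 library and 2 were lower, where 49.2% of the 12367 genes measured were higher. Of the 8, Nrg1 and Ereg were at least 2-fold higher (2 members), against 2.66% of all genes. No member was 2-fold lower, against 1.82% of all genes. The interval lay above 0 for Nrg1, Ereg and Tgfa (11.2% of all genes) and below 0 for Hbegf and Erbb2 (10.0% of all genes). As the list was chosen for Nrg1 and Ereg, nothing is read from these shares. Btc, with 4 and 1 UMIs, and Erbb3, with 4 and 2, were too low for a ratio.

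Nrg1, which encodes the Erbb3 and Erbb4 ligand neuregulin-1, had 647 UMIs in arterial-like cells of the Cept1 library and 81 in those of the control library. This was 85.6 CPM (interval 79.1 to 92.4) against 23.8 CPM (18.9 to 29.6), a log2 ratio of 1.84 (1.51 to 2.20). The UMIs were held by few cells. A UMI of Nrg1 was found in 107 of 845 cells (12.7%, exact binomial interval 10.5 to 15.1%) and in 26 of 307 (8.47%, 5.61 to 12.2%), and these 2 intervals overlap. B-like cells, which gave a reference for free RNA, had a UMI in 1.03% and 1.57% of cells at median depths of 4445 and 5370 UMIs.

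The libraries were further apart in cells with many Nrg1 UMIs than in cells with any. Cells with at least 3 Nrg1 UMIs made up 53 of 845 (6.27%, 4.73 to 8.12%) in the Cept1 library against 7 of 307 (2.28%, 0.922 to 4.64%) in the control library. They held 89.3% and 70.4% of all Nrg1 UMIs of the class. The highest cell had 60 UMIs in the Cept1 library against 28 in the control library, where the next had 9. Without the 5 highest cells of each library the levels were 63.5 and 8.82 CPM (log2 ratio 2.83), while the ratio of the shares of cells with any UMI was 0.58 on the log2 scale. With each cell thinned to 2000 UMIs the log2 ratio of levels was 1.20. The thinned shares with a UMI were 6.70% (5.07 to 8.65%) and 4.53% (2.43 to 7.62%), intervals that overlap. Nrg1 was higher in the Cept1 library under each of these, with log2 ratios from 0.58 to 2.83, while its cell shares were not apart.

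Ereg, which encodes epiregulin, a ligand of Egfr and Erbb4, had 264 and 56 UMIs in arterial-like cells of the Cept1 and control libraries. The levels were 34.9 CPM (30.8 to 39.4) and 16.5 CPM (12.4 to 21.4), a log2 ratio of 1.08 (0.66 to 1.53). Unlike Nrg1, Ereg was spread thinly. It was found in 150 of 845 cells (17.8%, 15.2 to 20.5%) and in 32 of 307 (10.4%, 7.24 to 14.4%), and cells with at least 3 UMIs held 38.3% and 37.5% of its UMIs. In capillary-like cells, 0.313% and 0.461% had a UMI, at median depths of 4569 and 6108. Thinned to 2000 UMIs, 4.96% (3.57 to 6.70%) and 2.79% (1.21 to 5.42%) of arterial-like cells had a UMI of Ereg, intervals that overlap, and the log2 ratio of levels was 0.65.

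**Figure D2:**
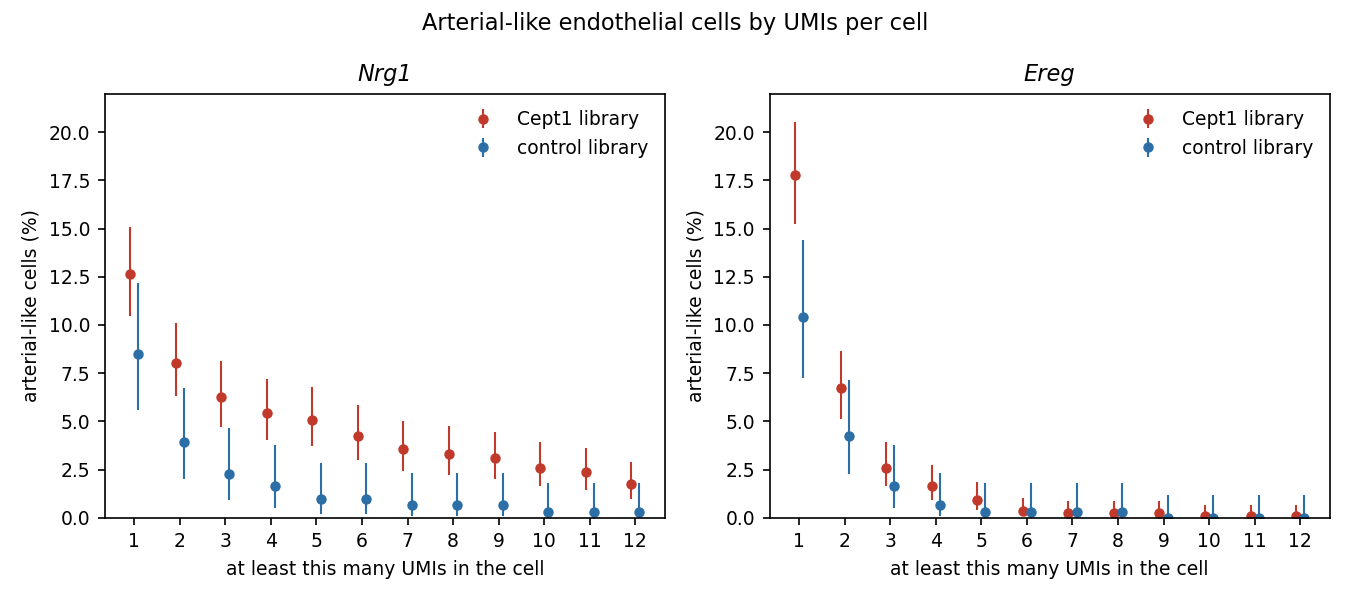
Percent of arterial-like cells (vertical axis) with at least the number of Nrg1 or Ereg UMIs on the horizontal axis, for 845 cells of the Cept1 library (red) and 307 of the control library (blue), with exact 95% binomial intervals. For Nrg1 the share at 3 or more UMIs is 6.27% against 2.28%, and the highest counts reach beyond the axis. For Ereg the shares at 1 or more UMIs are 17.8% against 10.4%, before thinning to a common depth, and both have few cells at 3 or more.

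Whether the same arterial-like cells held Nrg1 and Ereg was counted in each library. In the Cept1 library 39 of 107 Nrg1 cells had Ereg (36.4%, 27.4 to 46.3%) against 15.0% of the others (12.5 to 17.8%). In the control library 7 of 26 did (26.9%, 11.6 to 47.8%) against 8.90% of the others (5.84 to 12.9%), with intervals that overlap. The Nrg1 cells were deeper, with medians of 11352 and 9276 UMIs against 7166 and 8404. After thinning the shares were 11.1% (4.19 to 22.6%) and 4.52% (3.15 to 6.26%) in the Cept1 library, and the intervals overlapped. The control library then had 13 Nrg1 cells, of which none had a UMI of Ereg, against 2.92% of the others, too few to tell.

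Cells with at least 2 Nrg1 UMIs numbered 68 in the Cept1 library against 12 in the control library and were set beside the 738 and 281 arterial-like cells with none. The 9 genes with the highest ratio in the Cept1 library, on the log2(CPM + 10) scale, were Gdf6, Csmd1, Npr3, Sfrp2, Ahsg, Emcn, Gpm6a, Dcn and Ltbp1. These were picked from the Cept1 library, so only the control values are separate from that choice. Of the 9, 8 were also higher in the Nrg1 cells of the control library, and Csmd1 was not, where 45.9% of 3616 genes were higher. Some of these values rest on few cells. The 74 UMIs of Csmd1 in the Cept1 library came from 4 cells, and in the control library the 5 UMIs of Npr3 came from 1 cell and the 6 UMIs of Ltbp1 from 4.

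Gdf6, a growth factor of the BMP family, was at 205 CPM in the Nrg1 cells and 10.4 CPM in the others of the Cept1 library, and at 154 and 7.53 CPM in the control library. Emcn, which encodes the endothelial sialomucin endomucin, was at 852 against 161 CPM in the Cept1 library and at 979 against 145 CPM in the control library. Sfrp2, a secreted Wnt modulator, was at 556 against 96.2 CPM and at 1275 against 106 CPM. Gpm6a, a membrane glycoprotein best known in neurons, was at 105 against 13.4 CPM and at 108 against 3.93 CPM. All 4 therefore were higher in Nrg1 cells of both libraries. Dcn and Sfrp2 are also expressed by fibroblasts. The gate markers of other cells, which the gate itself keeps low in this class, moved in several directions. Fibroblast markers were at 90.2 against 178 CPM in the Cept1 library and 228 against 273 CPM in the control library. Smooth muscle markers were higher in the Nrg1 cells of both libraries, at 235 against 175 CPM and at 176.5 against 105 CPM. Myeloid markers were lower in the Nrg1 cells of the Cept1 library, at 45.1 against 86.6 CPM, and higher in those of the control library, at 79.7 against 54.0 CPM. The part of these cells' RNA in the differences was not tested. The 6 endothelial gate markers were lower in the Nrg1 cells, at 6632 against 8494 CPM and at 5607 against 8932 CPM.

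Among the members, Ereg was higher in the Nrg1 cells of both libraries, by 1.13 and 1.88 on the log2(CPM + 10) scale. Hbegf was lower, at -0.68 and -1.32, and Tgfa at -0.41 and -0.86, with 4 and 3 UMIs of these genes in the control Nrg1 cells. For Hbegf, 1 control cell among those without Nrg1 held 97 of the 226 UMIs of the class. That cell raises the level the control Nrg1 cells are compared with, and the difference without it was not computed. Areg, with 23 UMIs from 2 cells and 1 UMI from 1 cell, and Egfr, with 20 UMIs from 9 cells and 3 UMIs from 2 cells, were too sparse there to read a direction. Erbb4 was at 1.14 in the Cept1 library, with 32 UMIs from 10 cells. In the control library the 12 Nrg1 cells had no UMI of it, too few to read a direction from the value of -0.94.

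**Figure D3:**
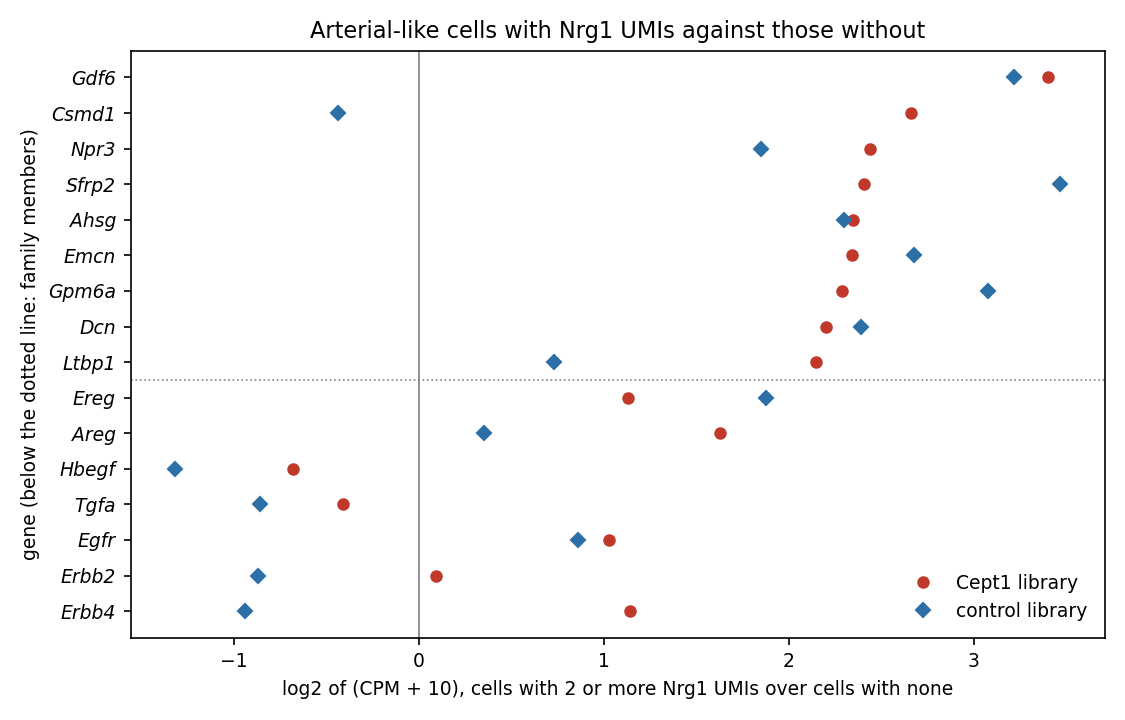
Log2 difference in level between arterial-like cells with 2 or more Nrg1 UMIs and those with none (horizontal axis, on CPM + 10), for the 9 genes that led in the Cept1 library and, under the dotted line, 7 members. Red points are the Cept1 library (68 Nrg1 cells) and blue diamonds the control library (12 Nrg1 cells). Of the 9 leading genes, 8 lie, with Ereg, Areg and Egfr, to the right of 0 in both libraries, and Hbegf and Tgfa lie to the left. In the control library Areg rests on 1 UMI, Egfr and Tgfa on 3 UMIs each, Hbegf on 4 UMIs, Npr3 on 5 UMIs and Erbb4 on none. The control value of Hbegf also depends on 1 cell without Nrg1 that held 97 UMIs.

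Hbegf, which encodes heparin-binding EGF-like growth factor, had 378 UMIs in arterial-like cells of the Cept1 library and 226 in those of the control library. The levels were 49.99 CPM and 66.46 CPM, a log2 ratio of -0.41 (-0.65 to -0.17). One control cell held 97 of the 226 UMIs, and without the highest cell of each library the ratio was 0.25. The shares of cells with a UMI were 20.5% (17.8 to 23.4%) and 17.6% (13.5 to 22.3%), against 1.12% and 1.55% in fibroblast-like cells of no subtype at median depths of 3233 and 3346. The direction for Hbegf therefore rested on 1 cell, and the cell shares of the libraries overlapped.

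Tgfa, which encodes the Egfr ligand transforming growth factor alpha, was evenly spread over arterial-like cells and close to level between the libraries. It had 364 and 133 UMIs, or 48.1 and 39.1 CPM, a log2 ratio of 0.30 (0.01 to 0.60). A UMI was found in 31.36% (28.2 to 34.6%) and 29.97% (24.9 to 35.4%) of cells, against 1.56% and 1.38% of capillary-like cells. The highest cell had 4 UMIs in the Cept1 library against 5 in the control library.

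Areg, which encodes amphiregulin, had 30 and 8 UMIs in arterial-like cells, 20 of the 30 in 1 cell. Its levels of 3.97 and 2.35 CPM gave a log2 ratio of 0.75 (-0.40 to 2.09) that counting error does not separate from 0. Of the receptors, Erbb2 was at 11.0 and 17.1 CPM from 83 and 58 UMIs, a log2 ratio of -0.64 (-1.14 to -0.13). A UMI of Erbb2 was found in 8.99% (7.15 to 11.1%) and 16.3% (12.3 to 20.9%) of arterial-like cells, with at most 2 UMIs in any cell. Egfr, with 53 and 18 UMIs, was at 7.01 and 5.29 CPM (0.41, -0.39 to 1.26). Erbb4, with 91 and 28 UMIs, was at 12.04 and 8.23 CPM (0.55, -0.08 to 1.21). In the control library 18 of the 28 Erbb4 UMIs were in 1 cell. The share of arterial-like cells with a UMI of Egfr was 4.02% and 4.23%, against 0.513% and 1.05% of B-like cells.

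**Figure D4:**
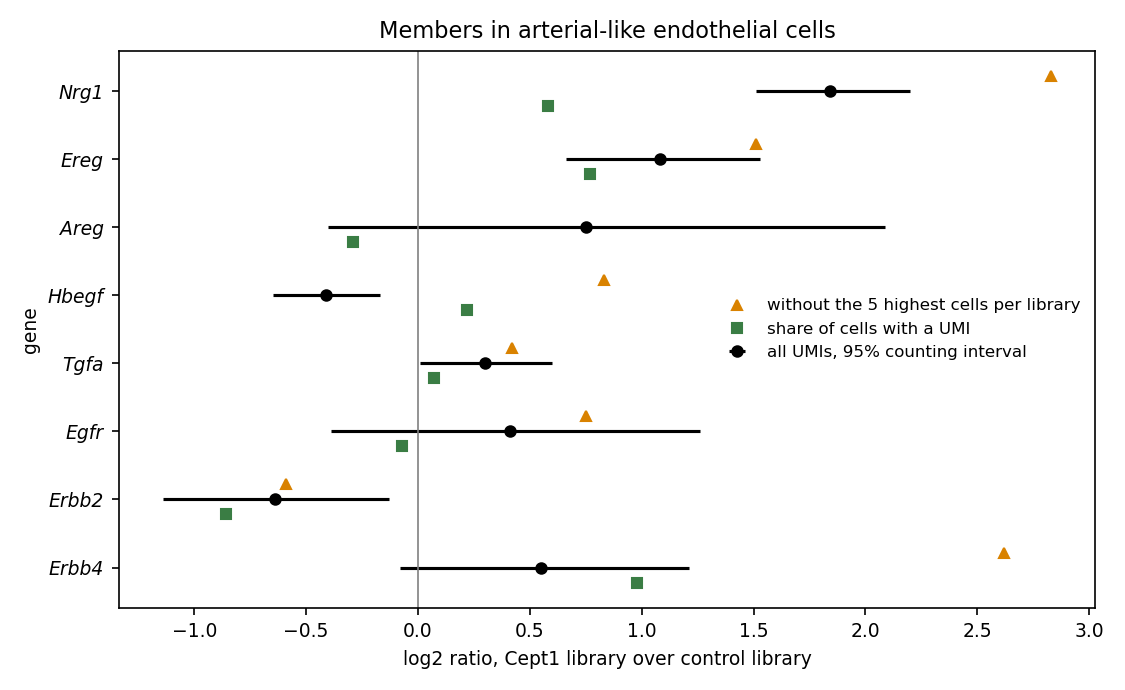
Log2 ratio between libraries (Cept1 over control) in arterial-like cells for the 8 members with at least 20 UMIs, from all UMIs (black, with 95% counting intervals), without the 5 cells of each library with most UMIs of the gene (orange) and from the shares of cells with a UMI (green). Nrg1 and Ereg lie right of 0 in all 3, Tgfa and Erbb4 do so too, Erbb2 lies left of 0 in all 3, and Hbegf, Egfr and Areg have points on both sides. For Areg no value without the 5 highest cells is plotted because too few UMIs remain.

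Other genes of the pathway were taken from 5 lists. In arterial-like cells none of the list genes with at least 20 UMIs over both libraries differed 2-fold. None of the 5 other ligand genes (Egf, Epgn, Nrg2, Nrg3 and Nrg4) reached 20 UMIs, and the nearest were Nrg2 and Nrg3, with 4 and 15 UMIs and 12 and 7 UMIs. Of 7 sheddases and their iRhom partners, 3 were higher and 4 lower, with a median log2 ratio of -0.01, which was also the median of all genes. Rhbdf2, an iRhom that helps to carry ADAM17 to the cell surface, was at 23.4 and 12.7 CPM, a log2 ratio of 0.89 (0.40 to 1.40). Bace1, a protease that cleaves neuregulin, was at 20.9 and 25.9 CPM (-0.31, -0.69 to 0.08).

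Of 7 adaptors downstream of the receptors, 5 were higher and 2 lower (median 0.11), where 49.2% of all genes were higher (median -0.01). Gab1, a docking protein for the phosphatase Shp2 and PI3 kinase, was at 75.7 and 63.8 CPM (0.25, 0.02 to 0.48). Sos2, a Ras exchange factor, was at 76.8 and 67.3 CPM (0.19, -0.03 to 0.42). Of 9 inhibitors and ubiquitin ligases, 4 were higher and 5 lower (median -0.20). Errfi1, an inhibitor of the Egfr kinase, was lower in the Cept1 library at 24.9 and 34.1 CPM (-0.46, -0.80 to -0.11). Cblb, a ubiquitin ligase, was at 29.9 and 36.8 CPM (-0.30, -0.62 to 0.03). Lrig1, which promotes receptor degradation, was at 7.41 and 9.12 CPM (-0.30, -0.96 to 0.38).

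Of 10 genes of ERK output and feedback, 6 could be measured in arterial-like cells, with 5 higher and 1 lower and a median log2 ratio of 0.25. Of all genes there, 49.2% were higher, with a median of -0.01. The direction was not particular to this class. Higher were 8 of 8 list genes in smooth muscle-like and 6 of 8 in lymphatic-like cells. In capillary-like and resident macrophage-like cells 3 of 8 were higher, in endothelial-like cells of no subtype 3 of 7, and in Pi16 fibroblast-like cells 1 of 9. Dusp5, a phosphatase that inactivates ERK in the nucleus, was at 14.3 and 10.9 CPM (0.39, -0.16 to 0.97). Spred2, an inhibitor of the Ras to ERK route, was at 40.2 and 31.5 CPM (0.35, 0.03 to 0.69). Spry4 was the lower one, at 4.63 and 5.29 CPM (-0.19, -1.05 to 0.71).

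Arterial-like cells held 728 of the 1156 Nrg1 UMIs found in cells of a class (63.0%). Of these 728, 647 came from the Cept1 library, whose higher arterial-like level chose the gene and which had more such cells. Among classes with at least 50 cells in each library, arterial-like cells had the highest mean level of the 2 libraries. Myeloid-like cells of no subtype and endothelial-like cells of no subtype came next, and these 3 classes overlapped between libraries. In the control library alone, arterial-like cells (23.8 CPM) were below myeloid-like cells of no subtype (56.8 CPM). In endothelial-like cells of no subtype, Nrg1 was at 29.2 CPM in the Cept1 library and 12.3 CPM in the control library, from 27 and 13 UMIs (log2 ratio 1.25, 0.24 to 2.33). In myeloid-like cells of no subtype it was the other way, with 6.66 CPM from 14 UMIs against 56.8 CPM from 82 UMIs (-3.09, -4.02 to -2.26). In that class 7 of 204 and 7 of 127 cells had a UMI (3.43% and 5.51%), and 1 control cell held 60 of the 82. Monocyte-like cells, with 63 and 26 cells, were too few for a ratio and had 33 and 46 UMIs, or 53.8 and 126 CPM, of which the control level was above that of arterial-like cells. Venous-like endothelial cells, with 60 and 40 cells, were also too few and had 1 and 8 UMIs, the 8 from 4 cells. Their levels were 2.29 and 26.7 CPM, higher in the control library, unlike in arterial-like cells. In the remaining classes with at least 50 cells Nrg1 was at 6.92 CPM or less in both libraries.

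Across 19 classes and 14007 genes, the genes whose pooled levels were most like those of Nrg1 were Lsr, Krt7, Krt80, Tmem185b and Psma7, with Pearson r of log2(CPM + 1) of 0.854, 0.801, 0.769, 0.764 and 0.745. The points share libraries and differ in depth, so the r values are descriptive. None of the 5 was higher in arterial-like cells of the Cept1 library. Lsr, a receptor at cell contacts, had a log2 ratio of -0.29 (-0.52 to -0.07) there and the keratin gene Krt80 one of -0.31 (-0.49 to -0.13). The 5 genes most like Ereg were Otogl, Scx, Popdc3, Dlx6 and Adra2a, with r of 0.884, 0.843, 0.841, 0.821 and 0.802. Their arterial-like log2 ratios ran from -0.27 for Adra2a, the alpha-2A adrenergic receptor, to 0.47 for Popdc3, whose interval was -0.50 to 1.55. The transcription factor gene Scx was at -0.19 (-0.44 to 0.07).

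Ereg had a second site in smooth muscle-like cells, which held 197 of its 639 UMIs in cells of a class (30.8%) next to 320 in arterial-like cells (50.1%). Of the 320, 264 came from the Cept1 library, whose higher arterial-like level chose the gene. The control library had 56 UMIs in arterial-like cells against 80 in smooth muscle-like cells, at 16.5 and 7.97 CPM. The levels in smooth muscle-like cells were 14.1 and 7.97 CPM from 117 and 80 UMIs, a log2 ratio of 0.82 (0.40 to 1.25). The share of cells with a UMI was 11.6% and 9.47%, with intervals that overlapped, at median depths of 10550 and 15153. Thus the level was higher in the Cept1 library while the cell shares were not apart. Of 30 Ereg UMIs in resident macrophage-like cells of the Cept1 library, 23 were in 1 cell, and the control library had none. Of 41 in Pi16 fibroblast-like cells of the control library, 20 were in 1 cell, against 5 UMIs in the Cept1 library.

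Areg, the amphiregulin gene, was highest in myeloid-like cells of no subtype, at 81.4 CPM (69.6 to 94.5) and 47.8 CPM (37.2 to 60.5), a log2 ratio of 0.77 (0.36 to 1.19). In resident macrophage-like cells it was lower in the Cept1 library, at 15.3 and 22.2 CPM from 210 and 176 UMIs (-0.54, -0.84 to -0.24). In T or NK-like cells it was at 18.6 and 16.0 CPM (0.22, -0.42 to 0.83). In all 3 classes Areg came from a small share of cells, 10.3% and 7.09% of the first, 2.69% and 3.74% of the second and 2.04% and 2.41% of the third. The highest cell held 87 of the 210 UMIs in resident macrophage-like cells of the Cept1 library and 51 of the 176 in the control library. Because so few cells carried Areg, the intervals of its ratios are far narrower than the spread between cells.

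Hbegf reached 20 UMIs in 10 of the 15 classes, the most of any ligand. Schwann-like cells had the highest level, at 149 and 133 CPM from 43 and 49 UMIs, with 62 and 68 cells. Smooth muscle-like cells were at 58.7 and 63.4 CPM (-0.11, -0.28 to 0.06), level within counting error. A UMI was found in 32.6% (29.3 to 36.1%) and 40.4% (36.6 to 44.3%) of them, at unequal median depths of 10550 and 15153 UMIs. Resident macrophage-like cells had 542 and 627 UMIs, or 39.5 CPM (36.2 to 42.9) and 79.2 CPM (73.1 to 85.6), 2.01-fold lower in the Cept1 library (interval -1.17 to -0.84 on the log2 scale). The UMIs were spread over many cells, as 16.1% (14.3 to 18.0%) and 28.1% (24.9 to 31.6%) of them had a UMI and the 5 highest cells held 9.78% and 13.1% of the UMIs. Over 13 other settings the log2 ratio ran from -1.03 to -0.70. The control macrophage-like cells were deeper, at 10259 against 8144 UMIs, and after thinning the shares were 6.67% (5.47 to 8.04%) and 9.81% (7.68 to 12.3%), whose intervals overlap. Myeloid-like cells of no subtype had the same direction, at 11.4 and 35.3 CPM (-1.63, -2.39 to -0.90).

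In resident macrophage-like cells 9 of the 10 members could be measured. The interval lay above 0 for Ereg, Egfr and Erbb4 (14.6% of 13279 genes) and below 0 for Areg and Hbegf (12.3%). Ereg and Erbb4 were past 2-fold higher (3.58% of genes), Ereg mainly through 1 cell as given above, and Hbegf was past 2-fold lower (2.03%).

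Endothelial-like cells of no subtype were mostly cells with markers of more than 1 subtype, 71 of 101 in the Cept1 library against 81 of 91 in the control library. Tgfa was highest in this class, at 189 CPM (162 to 220) and 141 CPM (119 to 165), from 175 and 149 UMIs. A UMI was found in 33 of 101 cells and 32 of 91 cells, and the ratio of these shares was -0.11 on the log2 scale against 0.43 (0.10 to 0.75) for the levels. Cells with at least 3 Tgfa UMIs, 17 and 13 in number, held 151 and 124 of the UMIs. They carried 58.5 and 74.9 UMIs of venous markers per cell and 67.8 and 61.9 of lymphatic markers, against 13.9 and 22.6 and 15.6 and 8.67 in the other cells of the class. Arterial markers were at 10.3 and 42.6 UMIs per cell against 11.4 and 9.97. The median depths of the cells with at least 3 Tgfa UMIs were 14975 and 22689 UMIs, against 6389 and 8045 UMIs for the whole class. The marker UMIs per cell are not scaled for this depth. Lymphatic-like cells were at 27.1 and 27.0 CPM of Tgfa (0.00, -0.61 to 0.64), and venous-like cells, at 60 and 40 cells, were at 45.8 and 66.8 CPM.

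In endothelial-like cells of no subtype 5 members could be measured and all 5 were higher in the Cept1 library (51.9% of 9317 genes were). Nrg1 and Hbegf were past 2-fold (2.92% of genes). Hbegf had 63 and 27 UMIs there, or 68.1 and 25.5 CPM (1.42, 0.74 to 2.12), with 25 of the 63 in 1 cell. The share of cells with a UMI of Hbegf was 13.9% and 14.3%, so the libraries differed in UMIs per cell with a UMI and were close in the share of such cells.

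Btc, which encodes betacellulin, a ligand of Egfr and Erbb4, was a smooth muscle and fibroblast gene here. Smooth muscle-like cells held 439 of its 758 UMIs (57.9%) at 23.3 and 24.5 CPM (-0.08, -0.36 to 0.20). C7 fibroblast-like cells, a subtype gated with C7, followed at 9.90 and 9.83 CPM (0.01, -0.81 to 0.84). Pi16 fibroblast-like cells, a subtype gated with Pi16, were at 6.74 and 7.11 CPM (-0.08, -0.54 to 0.38). Neighbouring classes in this order did not overlap between libraries, and within each class the libraries were level within counting error. In arterial-like cells Btc was at 0.529 and 0.294 CPM.

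Egfr was highest in C7 fibroblast-like cells, where 377 of 436 and 259 of 299 cells had a UMI (86.5% and 86.6%) and levels were 1107 CPM (1069 to 1146) and 1046 CPM (1007 to 1085). Fibroblast-like cells of no subtype followed at 387 and 351 CPM, Pi16 fibroblast-like cells at 312 and 301 CPM, resident macrophage-like cells at 263 and 242 CPM, Fmod fibroblast-like cells at 211 and 187 CPM and smooth muscle-like cells at 84.5 and 78.0 CPM. No neighbouring pair among these 6 classes overlapped between libraries. The levels of Egfr were higher in the Cept1 library in all 6 of these classes, with log2 ratios of 0.08, 0.14, 0.05, 0.12, 0.17 and 0.11 in the same order. Of the 6 intervals 4 lay above 0, and Pi16 fibroblast-like cells (-0.01 to 0.12) and smooth muscle-like cells (-0.03 to 0.26) were the exceptions. In the same order of classes, 7.87%, 11.3%, 9.35%, 14.6%, 12.3% and 13.3% of all genes had an interval above 0. The shares of cells with a UMI did not follow, being lower in the Cept1 library for Fmod fibroblast-like cells (50.8% against 56.5%). Those cells were shallower in the Cept1 library, at median depths of 5311 against 7553 UMIs.

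Egfr in resident macrophage-like cells was set beside fibroblast RNA in the same cells, since fibroblasts were the largest source. The 5 fibroblast markers were all detected and summed to 73.2 and 61.6 CPM in resident macrophage-like cells and to 51.4 and 55.4 CPM in myeloid-like cells of no subtype, where Egfr was at 12.8 and 7.62 CPM. For each 100 fibroblast marker UMIs there were 359 and 393 Egfr UMIs in the resident macrophage-like cells, against 25.0 and 13.8 in the other myeloid-like cells, 22.1 and 18.7 in C7 fibroblast-like cells and 2.97 and 2.59 in Pi16 fibroblast-like cells. Among resident macrophage-like cells without any fibroblast marker UMI, 625 of 979 (63.8%, 60.7 to 66.9%) and 300 of 462 (64.9%, 60.4 to 69.3%) had a UMI of Egfr. The same share was 6.30% and 5.56% in the other myeloid-like cells, which were as deep. In resident macrophage-like cells without fibroblast marker UMIs the Egfr level was 278 and 250 CPM. Egfr in this class was thus as high in cells without fibroblast marker UMIs as in the whole class, in both libraries.

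**Figure D5:**
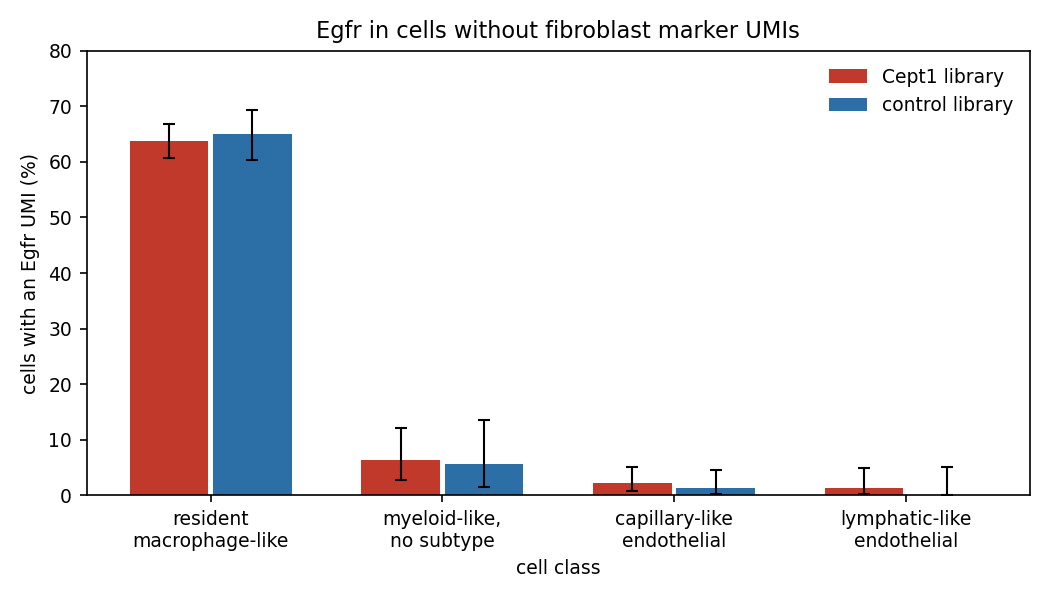
Percent of cells with at least 1 Egfr UMI among cells with no UMI of the 5 fibroblast markers, in 4 classes, for the Cept1 library (red) and the control library (blue), with exact 95% binomial intervals. Resident macrophage-like cells are at 63.8% and 64.9%, and the other 3 classes are at 6.30% or below.

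Erbb2, the receptor without a ligand of its own, was low and differed between cell classes. Schwann-like cells had its highest level at 34.58 and 29.96 CPM from 10 and 11 UMIs (0.21, -1.19 to 1.58). In 8 further classes, endothelial and fibroblast, the levels overlapped between neighbours and lay between 9.46 and 20.3 CPM. Capillary-like cells were at 11.1 and 20.3 CPM from 21 and 36 UMIs (-0.87, -1.72 to -0.05), the same direction as in arterial-like cells. The interval lay below 0 in these 2 of the 10 classes measured (for capillary-like cells, as for 8.53% of all genes) and above 0 in none. Leukocyte classes with at least 50 cells in each library were far lower, at 1.34 CPM or less in both libraries. Erbb2 had 4 and 2 UMIs in resident macrophage-like cells, and none in T or NK-like cells or in myeloid-like cells of no subtype.

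Erbb3, the neuregulin receptor of Schwann cells, was at 380 CPM (313 to 459) and 300 CPM (246 to 361) in Schwann-like cells, from 110 UMIs in each library (log2 ratio 0.34, -0.05 to 0.74). A UMI was found in 75.8% (63.3 to 85.8%) and 58.8% (46.2 to 70.6%) of these cells, and in 2.35% and 3.96% of the deeper Pi16 fibroblast-like cells. Schwann-like cells made up 62 and 68 cells and held 49.3% of all Erbb3 UMIs in cells of a class. Every other class with at least 50 cells was at 3.96 CPM or less, and Erbb3 had 6 UMIs in all arterial-like cells together.

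Erbb4, which binds neuregulins and several EGF ligands, was a smooth muscle gene in this tissue. Smooth muscle-like cells held 9026 of its 10248 UMIs in cells of a class (88.1%). The levels there were 516 CPM (501 to 532) and 472 CPM (459 to 486), a log2 ratio of 0.13 (0.07 to 0.19). The shares of cells with a UMI were 59.6% (56.0 to 63.1%) and 60.9% (57.0 to 64.7%), so the level was slightly higher in the Cept1 library and the cell shares overlapped. In smooth muscle-like cells 8 members could be measured, 3 higher and 5 lower, with 46.2% of 13360 genes higher. The interval lay above 0 for Ereg and Erbb4 (13.3% of genes) and below 0 for Areg (14.1%), whose 37 control UMIs came from 2 cells.

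Fmod fibroblast-like cells, a subtype gated with Fmod, came next for Erbb4 at 41.9 and 31.6 CPM (0.41, 0.16 to 0.66), with a UMI in 5.99% and 7.12% of cells. In resident macrophage-like cells Erbb4 was at 6.92 and 2.65 CPM from 95 and 21 UMIs (1.38, 0.69 to 2.14). A UMI was found there in 4.54% (3.56 to 5.69%) and 2.36% (1.38 to 3.74%) of cells, and in 2.05% and 3.32% of the shallower B-like cells. The control share was below that reference and the Cept1 share above it. The reference rests on 5 and 20 UMIs and was not matched in depth, so nothing is read from this.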

How the data were processed

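The values are raw counts of UMIs for each gene in each barcode, as the authors deposited them; per the file headers they came from Cell Ranger 7.2.0, and the submitters' processing notes also name Seurat and mm10. The sources used here do not give the annotation, intron counting, strand use or doublet removal. Barcodes with 500 genes or more and no more than 10% mitochondrial UMIs were kept. A class needed 2 markers, 3 marker UMIs and 3 times the marker UMIs of every other class, and a subtype 2 markers and 2 times those of other subtypes. Markers of several classes left out 738 (Cept1) and 916 (control) cells, and too few markers 299 and 290; 828 (8.17%) and 857 (11.4%) gated cells lay within 2 times of the cut-off. Doublets were kept in the reported values. Scrublet (scanpy 1.11.5) called 533 Cept1 cells (4.77%) and, at its own threshold, 0 control cells, so the Cept1 threshold (0.237) was used in both and called 183 control cells (2.10%).

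Ratios needed 20 UMIs over both libraries and 50 cells in each, with exact 95% Clopper-Pearson intervals. The floor for 0 UMIs was 3 counts per class and library. With 1 library per group nothing was tested, and no p-values were computed. The members and lists were chosen with earlier results of these data known. The genes named are the 10 members, the 2 largest ratios in each pathway list (3 where tied; Spry4 was added after its value was seen) and the 5 most like Nrg1 and Ereg. The genes of Nrg1 cells were chosen after the data were seen; that list was shortened to 9, and 1 result is not reported here. Alternatives covered cell filters, gates, Scrublet, scaling (TMM in edgeR 4.0.16, median of ratios), equal weights per cell, thinning to 2000 UMIs, adipocyte marker UMIs and Leiden clusters (leidenalg 0.10.2). The interval code was tested on simulated data.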

Additional observations from a re-analysis of the deposited data

Results flagged for a closer look

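Nrg1 went in opposite directions between cell classes under the same comparison, with counting intervals clear of 0 on both sides. The log2 ratio of Nrg1 was 1.84 (1.51 to 2.20) in arterial-like cells and 1.25 (0.24 to 2.33) in endothelial-like cells of no subtype. In myeloid-like cells of no subtype it was -3.09 (-4.02 to -2.26). The rise in arterial-like cells is one of the 2 differences that chose the members, so that side was known beforehand and supports nothing further. Areg likewise was higher in the Cept1 library in myeloid-like cells of no subtype, at 0.77 (0.36 to 1.19), and lower in resident macrophage-like cells, at -0.54 (-0.84 to -0.24). Nrg1 in myeloid-like cells of no subtype rested on few cells: without the 5 cells of each library with most of its UMIs, 2 UMIs were left in each library (-0.56), and a UMI was found in 7 of 204 cells (3.43%, 1.39 to 6.94%) and 7 of 127 (5.51%, 2.24 to 11.0%), which overlap. The differences between classes were not tested, as each group is 1 library.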

How the results depend on the processing

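Ratios of 73 results were recomputed under up to 14 alternatives, which gave 942 values, of which 836 stayed within counting error of the reported value, 82 moved beyond it and 24 had the opposite sign to a value whose interval was clear of 0. Leaving out the 1 or 5 highest cells and using cell shares were chosen after seeing the data. Nrg1 in arterial-like cells (1.84) moved to 1.37 with every cell put in the class of most marker UMIs, 1.20 after thinning, 2.31 and 2.83 without the 1 or 5 highest cells of each library, and 0.58 as cell shares. Ereg (1.08) moved to 0.65 after thinning. Hbegf (-0.41) turned to 0.31 with cells weighted equally, 0.17 after thinning, 0.44 without cells with an adipocyte marker UMI, 0.25 and 0.83 without the 1 or 5 highest cells, and 0.22 as cell shares. The 554 arterial-like genes past 2-fold became 867 with cells weighted equally (402 higher, 465 lower) and 5041 with no minimum of UMIs, which adds sparse genes. Without Scrublet calls the split of 329 higher and 225 lower became 209 and 336. Thinning and cell shares use fewer counts by construction, and otherwise the cause was not tested.

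In other classes, Hbegf in Fmod fibroblast-like cells turned to -0.49 with cells weighted equally, to -0.51 and -0.67 without the 1 or 5 highest cells and to -0.90 as cell shares. Erbb4 in fibroblast-like cells of no subtype turned to -0.03 by most marker UMIs, to -0.25 with cells weighted equally, to -0.44 after thinning and to -0.08 as cell shares. Egfr in neutrophil-like cells turned to 2.24 without 1 cell and to 0.54 as cell shares. As cell shares, Egfr was at -0.15 in Fmod, -0.05 in no-subtype fibroblast-like and -0.02 in resident macrophage-like cells, Erbb4 at -0.25 in Fmod fibroblast-like and -0.03 in smooth muscle-like cells, Areg at -0.02 in Pi16 fibroblast-like cells, and Hbegf at -0.04 and Tgfa at -0.11 in endothelial-like cells of no subtype. The Leiden cluster with most arterial-like cells held 744 of 845 and 241 of 307 of them and gave 1.90 for Nrg1 and 1.17 for Ereg. Depth limits members under 20 UMIs in a class, for which no ratio was computed and a difference was not examined. No paired analysis was possible because each group has 1 library.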
